A study of Mus musculus with 2 samples.

Results

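The endoplasmic reticulum (ER) genes described here were 48 genes chosen by name for their function: chaperones of the ER lumen, disulfide and prolyl isomerases, the machinery that targets and moves proteins into the ER, the machinery of ER-associated degradation (ERAD), and the sensors and transcription regulators of the unfolded protein response. They were found on the arrays by matching the RefSeq accession of each probe to a gene symbol, and every matching probe was kept. A probe was found for 46 of the 48 genes, out of 17302 genes with a probe. Dnajb11 and Pdia3 had no matching accession and were not analysed here. The 46 genes were covered by 88 probes and 96 spots, and 86 of the probes passed Agilent's detection flag (well above background) in both groups. All 46 genes were measured on both arrays by at least 1 probe, so that none was lost to the filter on dim signals.

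RNA came from a mouse hybridoma labelled 1H5F9; hybridomas are immortal fusions of an antibody-forming lymphocyte and a myeloma partner. The cells were cultured for 4 h in medium with fetal bovine serum, in one group with 0 µg/ml and in the other with 5 µg/ml of BSP-II, a peptide from the bursa of Fabricius, the organ of B cell development in birds. Each group was 1 single-colour array, labelled with Cy3, and both arrays carried replicate number 1. The question was which genes differ after exposure to the peptide; with 1 array per group no difference below has a replicate check, no test was possible, and "lower" and "higher" describe these 2 arrays.

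A cell that secretes antibody passes large amounts of protein through the ER. Ribosomes making a secreted protein are brought to the membrane by the signal recognition particle, the chain enters through the Sec61 channel, and chaperones and isomerases fold it. Chains that fail to fold are drawn back to the cytosol and destroyed by ERAD. When unfolded protein builds up, the sensors IRE1 (Ern1), PERK (Eif2ak3) and ATF6 signal the unfolded protein response, in which ATF6 and spliced XBP1 switch on chaperone and ERAD genes. Plasma cells use part of this response, XBP1 above all, as they become secretory.

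As a group the ER genes were slightly lower on the BSP-II array, and the difference was uneven among roles. All differences are log2 of the scaled signal, BSP-II minus untreated, where the scaled signal is a multiple of that array's own 75th percentile signal. The median over the 46 genes was −0.08, against −0.03 over all 12864 genes measured, and 32 of the 46 (69.6%) lay below that all-gene median, against 50% of all genes by construction. The genes ranged from −0.40 (Eif2ak3) to 0.11 (Edem2), and their quartiles were −0.16 and −0.01. The chaperones had the lowest median of the 5 roles, while the translocation genes lay in a narrow band near the middle. The excess below the middle was absent when the raw signal was used without background subtraction, where 23 of the 46 lay below the all-gene median.

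In what follows a gene is called lower or higher when it lay at least 1.2-fold from the all-gene median, by its probe with the highest mean signal. By this rule 6 of the 46 ER genes (13.0%) were lower and 0 were higher: Eif2ak3, Pdia4, Derl3, Manf, Hspa5 and Dnajb9. Among all measured genes 16.4% were lower and 10.4% higher by the same rule, so the share of lower ER genes was not above that background. The background depends on signal level, because dim genes scattered widely and mostly downwards. In the dimmest 10% of genes 45.0% were lower, and in the brightest 10% of genes 4.43%. The probes of 45 of the 46 ER genes lay at or above the median level of genes and 27 in the brightest 10%. Among the 6432 genes at or above the median level 5.01% were lower and 6.14% higher, against 6 of 45 ER genes there (13.3%) lower and 0 higher. Of these 6432 genes 43.5% lay below the all-gene median, as did 57.6% of the brightest 10%, in which 3 of the 27 ER genes were lower and 2.18% of genes were higher. No ER gene was 1.5-fold lower or higher by its brightest probe, as against 4.35% and 1.39% of all genes.

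**Figure D1:**
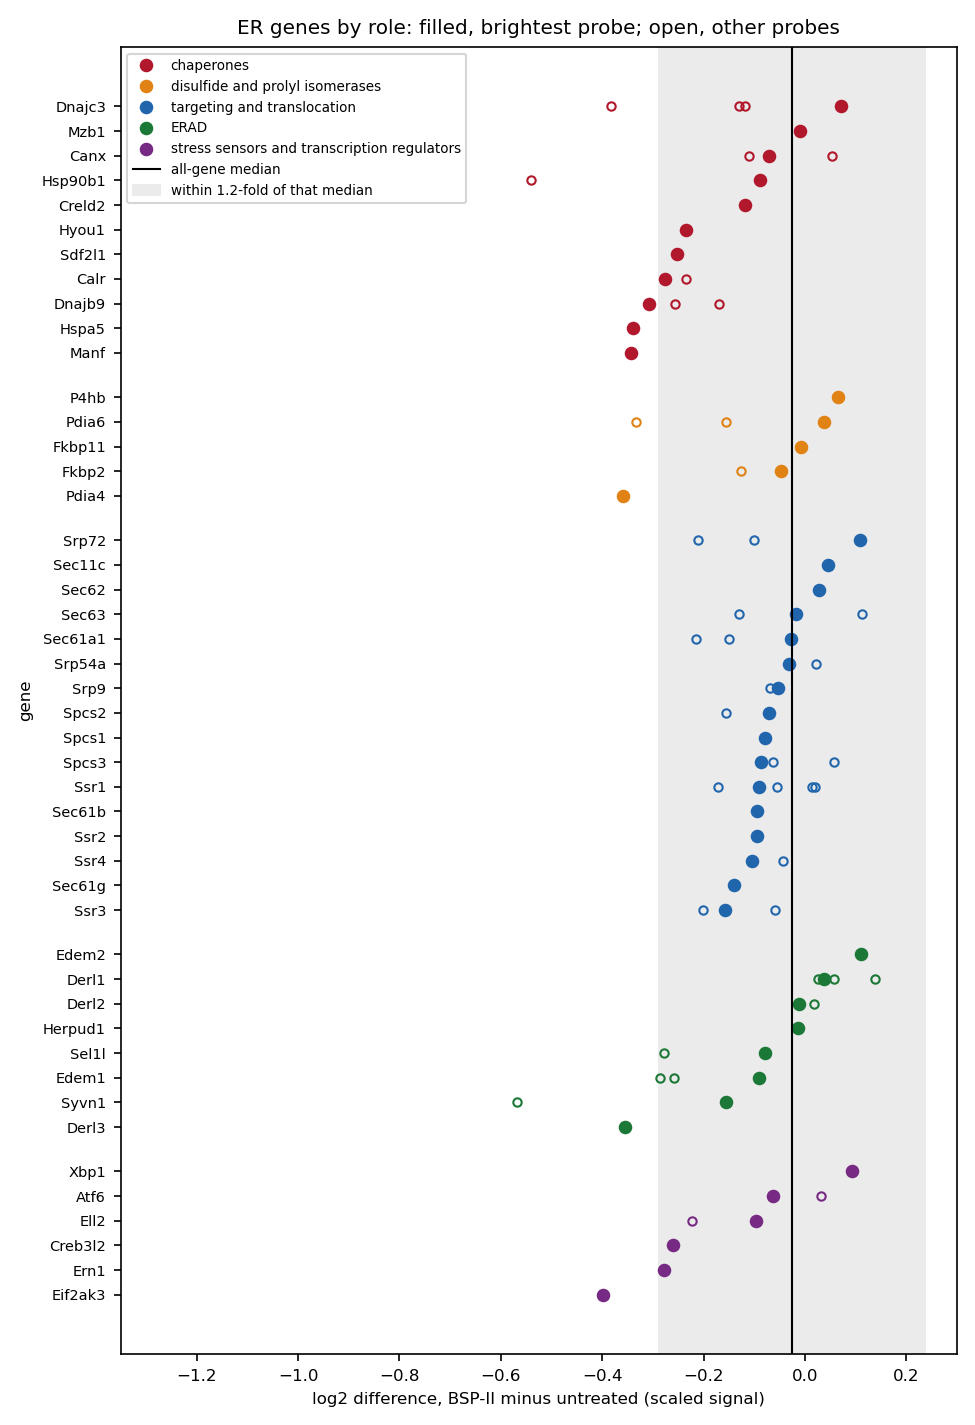
Log2 difference (BSP-II minus untreated, x axis) of the 46 measured ER genes, in 5 roles; filled points are the brightest probe of a gene and open points its other measured probes. The black line is the all-gene median at −0.03 and the grey band is within 1.2-fold of it; 6 filled points, from Eif2ak3 at −0.40 to Dnajb9 at −0.31, lie left of the band and none lies right of it.

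The error that Agilent's software gives for each spot, carried to a log2 difference, was 0.20 for every ER gene; it is a modelled value that hardly varies at these signals. Repeat spots of 1 probe scattered less: their median SD was 0.08, taken over 165 probes. By Agilent's error 11 of the 46 ER genes (23.9%) lay lower than the all-gene median by more than the error and 0 lay higher. In addition to the 6 above these were Ern1, Calr, Creb3l2, Sdf2l1 and Hyou1. The shares among all genes were 18.9% and 14.7%, and among genes at or above the median level 8.01% and 11.4%. Neither error includes the difference between cultures, RNA samples or hybridisations.

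**Figure D2:**
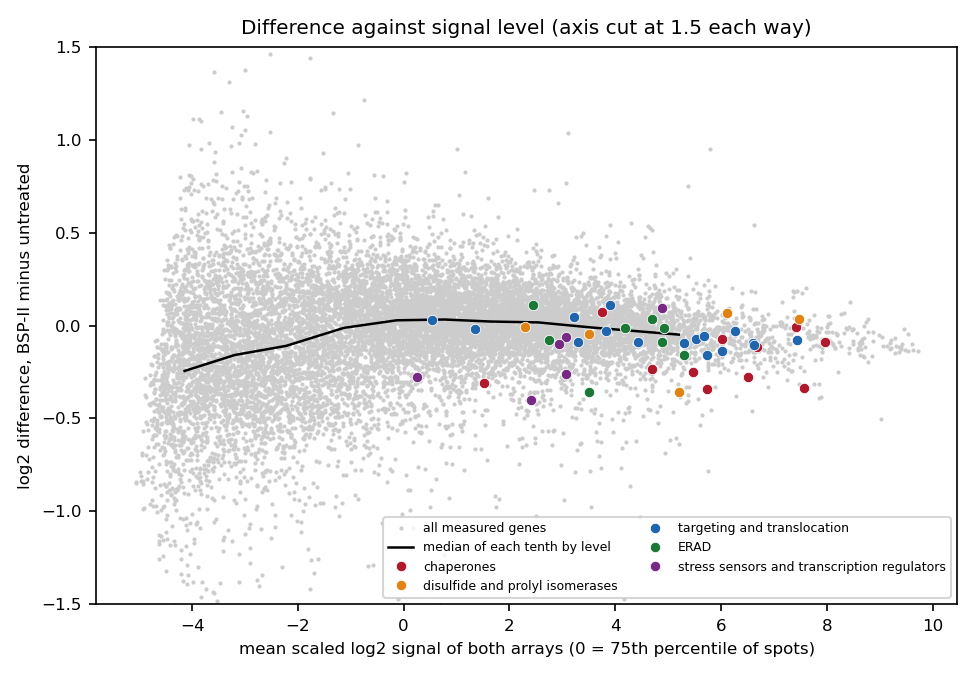
Log2 difference (y axis, drawn from −1.5 to 1.5) against the mean scaled log2 signal of both arrays (x axis, 0 is the 75th percentile of spots) for all measured genes (grey) and the 46 ER genes coloured by role; the black line joins the medians of 10 equal bins of genes by level. The line rises from −0.25 in the dimmest bin to 0.03 at middle levels and falls to −0.05 in the brightest. In the brightest bin 20 of the 27 ER genes lie below that bin's median.

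Promoters of ER chaperone genes are known for the ER stress response element (ERSE), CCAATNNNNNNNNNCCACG, to which ATF6 and XBP1 bind together with NF-Y. RefSeq promoter windows (build GRCm38.p6), 250 bases before to 50 bases after each gene's start, held 39 of the 48 genes. An exact ERSE on either strand stood in 9 of these 39 genes (23.1%), against 37 of 27025 genes with a window (0.137%). This excess is no independent result, since the element is known from promoters of such genes. CCAAT alone was also more frequent (76.9% against 41.1% of all genes), as was CCACG (71.8% against 35.5%). The ERSE sites are shown because their carriers did not share 1 difference on the arrays. Each is written 5′ to 3′ in the direction of the motif, with the fixed bases in capitals; Hsp90b1 has 2 sites.
Hspa5, chr2:34772025-34772043: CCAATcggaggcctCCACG
Hsp90b1, chr10:86705533-86705551: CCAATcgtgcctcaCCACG
Hsp90b1, chr10:86705638-86705656: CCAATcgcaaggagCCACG
Calr, chr8:84847075-84847093: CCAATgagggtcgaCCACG
Canx, chr11:50325800-50325818: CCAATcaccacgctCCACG
Dnajc3, chr14:118937827-118937845: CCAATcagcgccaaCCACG
Creld2, chr15:88819520-88819538: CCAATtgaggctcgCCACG
Pdia6, chr12:17266491-17266509: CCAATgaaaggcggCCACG
Syvn1, chr19:6046532-6046550: CCAATcggcggtagCCACG
Derl3, chr10:75893242-75893260: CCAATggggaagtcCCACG

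The 9 genes with an ERSE ranged from −0.36 (Derl3) to 0.07 (Dnajc3), with a median of −0.12, and 7 lay below the all-gene median. The 27 measured genes with a window and neither ERSE nor the related ERSE-II had a median of −0.08, and 19 of them lay below. The ranges overlapped almost fully. ERSE-II, ATTGG and CCACG with 1 base of any kind between them, was found in Herpud1 (−0.01) and in Dnajb11, which had no probe, and in 0.0444% of all genes. The element UPRE, TGACGTGG, was in none of the 39 and in 0.714% of all genes. These motifs overlap in part: ERSE holds both CCAAT and CCACG, and UPRE holds CCACG on its other strand. Outside the list, 28 genes had an ERSE, of which 12 were measured. Their median was −0.09 and 6 lay below the all-gene median; Ero1b, which oxidises PDI, was at −0.20 and the mannosyltransferase Alg12, which shares the Creld2 site, at 0.06. A match describes the letters only and does not show that a factor binds.

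Whole windows are given for 4 genes to set carriers that differed beside each other. Hspa5 and Derl3 carry an ERSE and were lower, Dnajc3 carries one and was not lower by its brightest probe, and Pdia4 was lower without an exact ERSE. The capitals mark the fixed bases of the ERSE in the first 3, and all CCAAT and CCACG matches on either strand in Pdia4. Each is written in the direction of the gene.
Hspa5 promoter, chr2:34771840-34772139, plus strand: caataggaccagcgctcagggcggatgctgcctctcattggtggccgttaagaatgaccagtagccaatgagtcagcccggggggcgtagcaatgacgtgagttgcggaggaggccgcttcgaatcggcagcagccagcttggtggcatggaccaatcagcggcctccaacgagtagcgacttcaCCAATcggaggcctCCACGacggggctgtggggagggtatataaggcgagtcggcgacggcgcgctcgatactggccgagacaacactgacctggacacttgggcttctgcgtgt
Derl3 promoter, chr10:75893148-75893447, plus strand: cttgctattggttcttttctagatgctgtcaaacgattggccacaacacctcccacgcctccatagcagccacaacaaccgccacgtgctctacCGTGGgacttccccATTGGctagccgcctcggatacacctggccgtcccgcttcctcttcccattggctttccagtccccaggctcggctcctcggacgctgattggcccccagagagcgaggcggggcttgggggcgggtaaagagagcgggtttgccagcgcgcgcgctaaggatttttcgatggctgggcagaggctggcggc
Dnajc3 promoter, chr14:118937682-118937981, plus strand: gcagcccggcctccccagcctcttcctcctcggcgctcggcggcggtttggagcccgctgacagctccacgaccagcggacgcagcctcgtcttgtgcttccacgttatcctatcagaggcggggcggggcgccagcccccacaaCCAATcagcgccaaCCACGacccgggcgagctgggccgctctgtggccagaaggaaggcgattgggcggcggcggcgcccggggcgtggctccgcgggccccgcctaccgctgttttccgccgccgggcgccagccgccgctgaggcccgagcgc
Pdia4 promoter, chr6:47813463-47813762, minus strand: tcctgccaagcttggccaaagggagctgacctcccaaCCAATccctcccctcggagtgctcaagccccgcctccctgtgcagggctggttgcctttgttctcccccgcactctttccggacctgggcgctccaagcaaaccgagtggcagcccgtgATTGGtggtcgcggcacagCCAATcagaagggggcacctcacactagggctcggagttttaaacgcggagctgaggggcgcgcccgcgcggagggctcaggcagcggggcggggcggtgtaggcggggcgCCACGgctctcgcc

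The chaperones had the lowest median of the 5 roles, −0.24 over 11 measured genes, and 9 of the 11 lay below the all-gene median. Hspa5 encodes BiP, the HSP70 of the ER and the main target of the unfolded protein response. Its scaled signal was 214 without and 169.5 with BSP-II (the order used for each pair below), a log2 difference of −0.34 from its only probe. Manf, a small ER protein secreted under stress, was at 60.3 and 47.5, also a difference of −0.34 from 1 probe. Its spot lay in a cluster, having at least 2 others nearby that were 2-fold different in a shared direction, and so did that of Hyou1. Without such spots 9 chaperones remained, with a median of −0.12, and the chaperones were no longer the lowest role. The sensors and regulators, whose chosen probes lay in no cluster, had a median of −0.18.

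Dnajb9 (ERdj4), a J-domain cochaperone of BiP, lay below the all-gene median by all 3 of its probes, and was 1.2-fold lower by the brightest. Its scaled signals were 3.20 and 2.58 at the brightest probe, a difference of −0.31, and the others gave −0.26 and −0.17. Calreticulin (Calr), the soluble lectin chaperone that holds glycoproteins during folding, was at 99.8 and 82.4, a difference of −0.28, and a second probe gave −0.23. It missed the 1.2-fold limit narrowly. Its membrane-bound counterpart calnexin (Canx) was at 66.4 and 63.2, a difference of −0.07, with −0.11 and 0.05 at its other probes. At the brightest probes the lectin chaperones differed by about Agilent's error for 1 gene, and their second probes lay closer together.

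Sdf2l1, a partner of BiP and its J proteins, had scaled signals of 48.5 and 40.8, a difference of −0.25. Hyou1 (GRP170), which exchanges nucleotide on BiP, was at 28.1 and 23.9, a difference of −0.24. Creld2, an ER stress-inducible protein of the lumen, was at 107.3 and 98.9, a difference of −0.12. Each of these 3 rested on 1 probe, and all 3 lay on the low side without reaching 1.2-fold.

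Hsp90b1 (GRP94), the HSP90 of the ER, had probes that disagreed. The brightest gave 256 and 241, a difference of −0.09, and the other, with scaled signals of 53.8 and 37.0, gave −0.54. Dnajc3 (p58IPK), another J-domain cochaperone, was likewise at 13.1 and 13.7, a difference of 0.07, while its other 3 probes gave −0.12, −0.13 and −0.38. The size of the Hsp90b1 difference depends on the probe, and for Dnajc3 the direction does. Mzb1, a chaperone of B lineage cells that helps assemble and secrete IgM, was measured by 9 spots after 1 outlier was left out, at 173 and 171.5, a difference of −0.01 with an SD of 0.03 among spots. These spots all belong to 1 probe, at least 1 of them in a cluster, and the gene lay at the middle of all genes.

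Among the isomerases 1 of 5 was lower. Pdia4 (ERp72), a disulfide isomerase, had scaled signals of 41.6 and 32.5, a difference of −0.36 from 1 probe. P4hb, protein disulfide isomerase itself, was at 67.7 and 70.8, a difference of 0.07. Pdia6 (P5) was at 176 and 181, a difference of 0.04, but its dimmer probes gave −0.33 and −0.16. The prolyl isomerases Fkbp2 and Fkbp11 were at −0.05 and −0.01. A further Fkbp11 probe was not well above background on either array and gives no fold. The role median was −0.01, so Pdia4 stood apart from the other 4.

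The 16 genes of targeting and translocation had the narrowest range of the 5 roles. All were measured, 0 were lower or higher, and their differences spanned −0.16 to 0.11 with a median of −0.07; 12 lay below the all-gene median. The channel subunits Sec61a1, Sec61b and Sec61g were at −0.03, −0.09 and −0.14. Sec62 and Sec63, which assist the channel, were at 0.03 and −0.02. A dimmer Sec62 probe was well above background on the BSP-II array alone, and its scaled signal was 1.502-fold higher there. This is the ratio as measured, a log2 difference of 0.59 with an Agilent error of 0.40, and not a lower limit. The subunits of the TRAP complex, Ssr1 to Ssr4, which sits beside the channel, were at −0.09, −0.10, −0.16 and −0.10. All lay below the all-gene median by less than Agilent's error. The other probes of Ssr1 gave −0.17 to 0.02, those of Ssr3 −0.20 and −0.06, and that of Ssr4 −0.04.

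Signal peptidase, which removes the signal peptide, showed the same small range. Its subunits Spcs1, Spcs2 and Spcs3 were at −0.08, −0.07 and −0.09, and the catalytic subunit Sec11c at 0.05. Of the signal recognition particle, Srp9 was at −0.05 and Srp54a at −0.03. Srp72 was the highest of the role at 0.11, with scaled signals of 14.4 and 15.6, but its other probes gave −0.21 and −0.10, the former with scaled signals of 15.9 and 13.7. Its sign therefore depends on the probe.

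Among the 8 ERAD genes 1 was lower and 0 were higher, with a median of −0.05. Derl3, a derlin of the retrotranslocation machinery found in secretory cells, had scaled signals of 12.8 and 10.03, a difference of −0.36 from 1 probe. The other derlins did not share it: Derl1 was at 0.04, with its other 3 probes between 0.03 and 0.14, and Derl2 at −0.01, or 0.02 by its second probe. The HRD1 ubiquitin ligase Syvn1 was at 41.3 and 37.1, a difference of −0.16, and its second probe, at a low signal of 37.0 and 28.8 before scaling, gave −0.57. Its partner Sel1l was at −0.08, and at −0.28 by a second probe.

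The mannosidase-like Edem1, which marks glycoproteins for ERAD, was at −0.09, with −0.29 and −0.26 at its other probes, and Edem2 was the highest of all ER genes at 0.11, with scaled signals of 5.28 and 5.69. Herpud1, a scaffold of the HRD1 complex and a known stress target, was at 18.3 and 18.1, a difference of −0.01.

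Of the sensors and regulators 1 of 6 was lower, and the median was −0.18. Eif2ak3 (PERK), the kinase that slows translation under ER stress, was the lowest ER gene, with scaled signals of 6.06 and 4.59, a difference of −0.40 from 1 probe. Ern1 (IRE1), the nuclease that splices Xbp1 RNA, was at 1.30 and 1.08, a difference of −0.28 from the dimmest of the members' chosen probes. Atf6 was at −0.06, and a second probe gave 0.03. Eif2ak3 and Ern1 thus lay lower than Atf6, and differed from each other by less than Agilent's error.

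Xbp1, the transcription factor that plasma cells need for secretion, was at 28.8 and 30.7, a difference of 0.09, on the high side; its probe does not tell spliced from unspliced RNA here. Creb3l2, a membrane-bound transcription factor of the ATF6 kind, was at 9.19 and 7.67, a difference of −0.26. Ell2, an elongation factor that favours the secretory form of immunoglobulin RNA, was at −0.10, and a second probe gave −0.22.

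The probes not chosen to represent a gene give a second reading for 24 of the ER genes, though on the same RNA and the same arrays. These 40 probes had a median of −0.13, and 29 (72.5%) lay below the all-gene median, against 50.1% of 5019 such probes over all genes. Of the 40, 4 (10%) were at least 1.2-fold lower and 0 higher, while 15.2% of all such probes were lower. Among the 3463 such probes of genes at or above the median level 11.7% were lower. With all 86 member probes counted singly 10 were lower, against 16.1% lower and 10.8% higher among all probes of measured genes. In 5 genes (Hsp90b1, Dnajc3, Pdia6, Srp72 and Syvn1) the probes spanned more than 0.26. Of the 6 lower genes only Dnajb9 had other probes to set beside it.

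Other genes of the same pathways, in 5 further lists, did not show the low median of the chaperones, which was itself less low without clustered spots. These lists, like the 48 genes, were chosen with earlier results of these data known. Of 32 measured folding factors outside the 48, 0 were lower and 3 higher, with a median of 0.00. These were Erp44, which retains folding enzymes in the early secretory pathway (0.45, but 0.00 and 0.10 at its other probes), and the dim prolyl isomerases Fkbp9 (0.61) and Fkbp7 (0.34). The oxidase Ero1a was at 0.19, and at 0.37 by a second probe. Other translocation genes (19 measured) had a median of −0.03 with 0 lower and 0 higher; Tram2 was at 0.19, Tram1 at −0.19 (0.05 and 0.30 at its other probes) and Get1 at 0.19.

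Other ERAD genes (21 measured) had a median of 0.00, with 0 lower and 1 higher, and 14 lay above the all-gene median. The ubiquitin-conjugating enzyme Ube2g2 was at −0.28 (−0.10 at its other probes) and the ligase Rnf5 at −0.23 (−0.05 at its other probe). Other genes of stress signalling (25 measured) had a median of 0.02, with 3 lower and 2 higher: Mapk8, the kinase JNK1, was at −1.01 and Creb3l1 at −0.48, both near background, and Creb3l3 at 0.37, also dim. The others were brighter: Traf2, an adaptor that binds IRE1, was at −0.31 and the ER membrane protein Wfs1 at 0.33. ER to Golgi traffic (23 measured) had a median of −0.07 with 0 lower and 1 higher; the KDEL receptors, which return ER residents, lay on both sides, with Kdelr1 at −0.27, Kdelr2 at −0.08 and Kdelr3 at 0.25. Sec24a, a COPII coat subunit, was at −0.25.

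**Figure D3:**
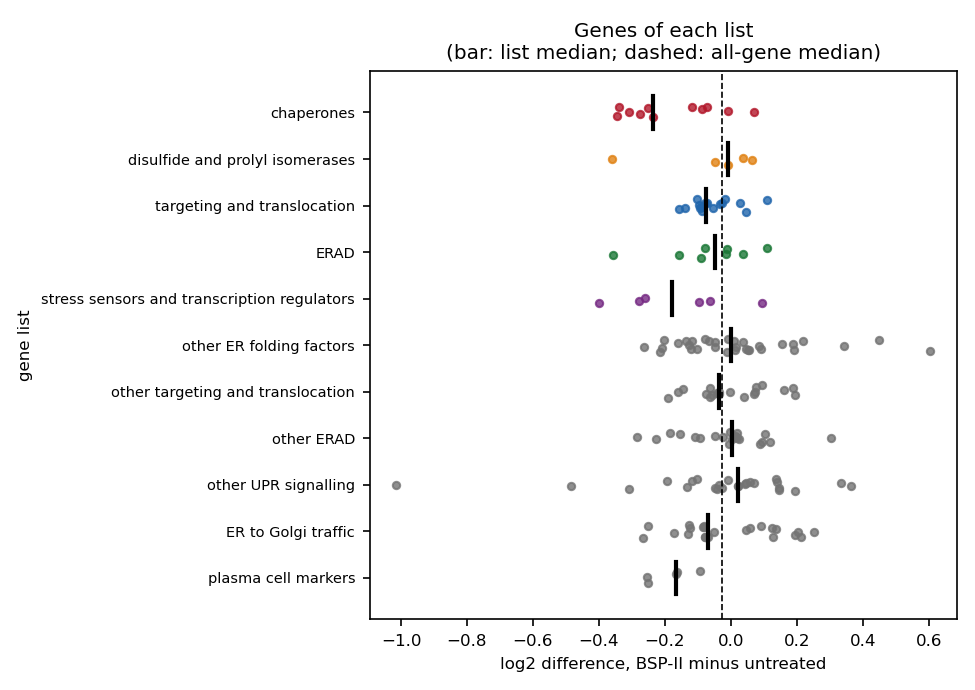
Log2 differences (x axis) of the measured genes in the 5 roles of the ER list (coloured), 5 lists of other pathway genes and the plasma cell markers (grey); each point is 1 gene, black bars are list medians and the dashed line is the all-gene median. The chaperone median at −0.24 is the lowest bar and that of other signalling genes, at 0.02, the highest.

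The labelled cell type was checked by markers. All 5 plasma cell markers were detected on both arrays: the surface proteoglycan Sdc1, the transcription factors Prdm1 and Irf4, the receptor Tnfrsf17 and the joining chain Jchain. All 5 lay below the all-gene median, between −0.25 (Irf4) and −0.09 (Sdc1), with a summed difference of −0.16. The sum is mostly Jchain, at 150869.4 without BSP-II, whose brightest probe had a spot in a cluster. Of the ER chaperones 9 of 11 lay below the all-gene median too. The part of the plasma cell markers in that result was not tested. In bulk RNA fewer cells of a type and less RNA per cell cannot be told apart. Of the B cell markers 5 of 6 were above background, at −0.41 to −0.10, with all 5 below the all-gene median, and Pax5 was not. Among these 5, Cd22 (12.6 and 12.95 before scaling) and Cd79a (23.7 and 22.3) were near background. Summed signals of T cell, myeloid and fibroblast markers were 100.1 to 397.5 without and 100.7 to 352.1 with BSP-II, against 173887.5 and 178914.4 for the plasma cell markers. Of those with a probe, 5 of 5 T cell, 3 of 5 myeloid and 4 of 6 fibroblast markers were detected on both arrays. Of these dim markers 4 of 5 T cell, 3 of 4 fibroblast and 1 of 3 myeloid markers lay below the all-gene median. The T cell and fibroblast medians were −0.31 and −0.21. Dim genes of any kind were also low on these arrays. In level bins 1 to 3, counted from the dimmest, the medians of all genes were −0.25, −0.16 and −0.11. In the dimmest bin 45.0% of genes were 1.2-fold lower. The part of signal level in the values of these dim markers was not tested.

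**Figure D4:**
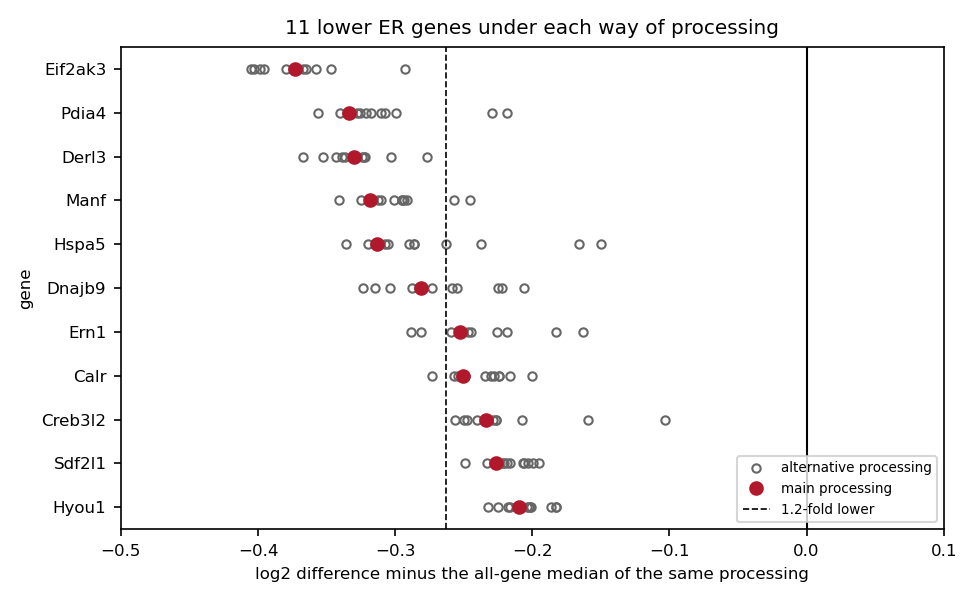
Log2 difference minus the all-gene median of the same processing (x axis) for the 11 ER genes that were lower by more than Agilent's error; red points are the main processing, open points the alternatives, the solid line is no difference and the dashed line 1.2-fold lower. Every point lies left of the solid line; Derl3 and Eif2ak3 lie left of the dashed line throughout, whereas the highest value of Hspa5 is −0.15.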

How the data were processed

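Both arrays lie on the same slide. The submitters' processing notes name Agilent Feature Extraction 10.5.1.1 for reading them. The deposited intensity values are the raw median brightness of each spot and its background, and a background-subtracted processed signal with its error, per the file headers. The deposited flags (unit "other") mark saturated, outlier and detected spots; 0 non-control spots were saturated. The authors' log2 value table, as deposited, covers 23296 probes; set against the scanner values it equals the log2 processed signal plus −4.85 (untreated) and −4.94 (BSP-II) for 23130 probes on each array, within 0.0001. Its medians are 2.88 and 2.99 and its direction is that of the scanner values; the sources used here do not give the origin of the constants.

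Processed signals were put on the log2 scale and each array's own 75th percentile was subtracted, 309 (untreated) and 356 (BSP-II). Control spots and 189 outlier spots were left out and spots of a probe averaged. Accessions were matched without versions to RefSeq symbols of GRCm38.p6, used for names, since the arrays' grid is on mm9; 25091 of 41163 probes matched 1 gene. A gene counted as measured when at least 1 probe had the detection flag in both groups, and its brightest probe stood for it. The lowest signal well above background was 11.4 (untreated) and 7.66 (BSP-II), which limits dim probes; the number of arrays limits precision. For the Sec62 probe detected on 1 array, the fold sets the brighter array's scaled signal against the higher of that floor and the probe's own signal on the dimmer array. Here the probe's own signal was the higher. The step that counts genes and takes medians was tested on simulated differences. Members, lists and thresholds were chosen with earlier results of these data known. All 48 genes are accounted for; of each further list the 3 genes with the largest difference are named, except 1 that is not reported here, and other genes for their role. Genes with a motif outside the list, and Traf2, Wfs1, Ero1a and Kdelr2, were named after their values were seen. Alternatives were scaling by the median, by quantiles or by loess, the deposited value table, normexp (offset 50), raw signals, other filters, other probe rules, local medians over 10 spots each way and removal of clustered spots (2 or more others within 3 spots). Work used Python 3.11.15, numpy 2.4.6, pandas 2.3.3, statsmodels 0.14.6, matplotlib 3.10.9, R 4.3.3 and limma 3.58.1.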

Additional observations from a re-analysis of the deposited data

How the results depend on the processing

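No paired analysis was possible because each group is 1 array. Relative to the all-gene median of each processing, the median of the ER genes was −0.06 and stayed between −0.08 and −0.03 in all alternatives but 1: without background subtraction it was 0.00. Scaling to the median added 0.12 to every difference and left relative values as they were. The count of lower ER genes, 6 of 46 (16.4% of all genes), was 3 with normexp (6.22% of all genes), 2 without background subtraction (11.2%), 10 of 86 with probes counted singly (16.1%), 11 at 1.1-fold (27.1%), 0 at 1.5-fold (4.35%) and, added after seeing the data, 3 of 27 in the brightest 10% of genes (4.04%). The count below the all-gene median, 32, was 61 of 86 with probes counted singly. In the brightest 10% of genes 20 of 27 lay below the median of those genes, −0.05. The other values in this paragraph for the brightest 10% of genes are also relative to that median. The relative chaperone median, −0.21, was −0.093 without clustered spots, which left 9 genes. That of ERAD, −0.02, was 0.064 without background subtraction and −0.10 with the dimmest probe. That of the isomerases, 0.02, was −0.060 with probes counted singly and −0.092 with the dimmest probe. That of other translocation genes, −0.01, was 0.075 with the dimmest probe, and that of the sensors, −0.15, was 0.14 in the brightest 10% of genes, from 1 gene. The cause was not tested, except where fewer genes or other probes are the alternative itself. Hspa5 went from −0.31 to −0.17 with normexp and −0.15 without background subtraction. Of the single genes, 615 of 622 values under alternatives stayed within Agilent's error of the main one and 0 reversed a call. Calls were lost and gained, however. Dnajb9 was 1.2-fold lower in 9 of 14 ways of processing, Hspa5 in 12 of 15, Manf in 12 of 14 and Pdia4 in 13 of 15. Derl3 and Eif2ak3 were lower in all 14. Ern1 and Calr, not called lower in the main processing, were 1.2-fold lower in 2 of 13 and 1 of 15.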
